A study of Mus musculus with 12 samples.

Results

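The mitosis genes described here are 40 mouse genes that act in G2 phase and mitosis, out of 36439 genes counted in the series. They were taken from a fixed list of symbols, matched to the Ensembl identifiers of the count tables, and all 40 were found. The rule uses no measured value, although the list was drawn up with earlier results of these data known. All 40 genes passed the filter on low counts in both comparisons.

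The RNA came from tumour-associated macrophages (TAMs), macrophages that populate a solid tumour, isolated from Lewis lung carcinoma, a transplantable mouse lung tumour, growing under the skin of C57BL/6 mice. Of 4 groups with 3 RNA sequencing libraries each, the sorted pair held TAMs positive for F4/80, a macrophage surface protein, and for either MRC1, the mannose receptor (MRC1+ TAMs), or CD11c, an integrin (CD11c+ TAMs). The other pair held F4/80+ TAMs that overexpressed either the microRNA miR-511-3p or a mutated form of it (miR-511-3p-mut, here "mutated"). The titles of the overexpression samples carry the prefix SFFV, which the labels do not spell out, and the labels give neither the vector, nor the cells that carried it, nor the age of the mice.

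Replicates are numbered in the labels, which do not say if each is a mouse or a tumour of its own. The p-values therefore reflect how far these libraries scatter, and that scatter may be technical. The genes behind the labels were read in every group. Adgre1, which encodes F4/80, stood at 543 to 1427 CPM, read counts scaled to the library total, over the 12 libraries, and Itgax, which encodes CD11c, at 75.0 to 117 CPM in MRC1+ against 902 to 1005 CPM in CD11c+ TAMs. Mrc1 stood at 3443 to 3913 CPM in MRC1+ and at 1384 to 1746 CPM in CD11c+ TAMs, so it was also read in the CD11c+ gate.

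A cell enters mitosis when cyclin B binds and activates the kinase CDK1. Chromosomes then condense, kinetochores attach them to the spindle, the spindle checkpoint holds back the anaphase-promoting complex until all are attached, and the cell is finally cleaved by a contractile ring. Transcripts of these genes accumulate in G2 and mitosis and are low in cells outside the cycle, so they are widely read as marks of dividing cells. Macrophages in tissues can arise from blood monocytes or by division in place, and both routes are known in tumours. In a bulk sample, fewer cells in mitosis and less mitotic RNA per dividing cell cannot be told apart.

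Many genes of this kind share a short promoter element, the cell cycle homology region (CHR), which is bound by the MuvB complex. MuvB acts with p130 and E2F4 as a repressor in resting cells and with B-MYB and FOXM1 as an activator in G2. The core of the CHR is most often TTTGAA, and TTTAAA is a known variant. Promoters of 250 bases before to 50 bases after the gene start, from RefSeq on GRCm38.p6, matched 34 of the 40 genes. A gene with more than 1 annotated start was counted once, as holding an element if any of its promoters did. The number of starts per gene was not taken into account. TTTGAA was present on either strand for 27 of the 34 genes (79.4%), against 20.2% of 27025 genes. TTTAAA was present in 9 of 34 (26.5%) against 14.9%, and at least 1 of the forms in 30 of 34 (88.2%) against 30.6%. CCAAT, the box bound by NF-Y, was present in 25 of 34 (73.5%) against 41.1%. A match is a description of these letters and not a measured binding site.

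Windows of 30 bases around such matches are shown for 5 genes that were called in the first comparison below and for Mki67, which was not. Capitals mark the CHR match, and each window is read 5′ to 3′ on the strand given. Positions are those of the most upstream base of the match on the strand of the gene, relative to the gene start. Cdk1 holds TTTGAA at position -15 (chr10:69352910-69352939, minus strand), Cdc20 at -18 (chr4:118437344-118437373, minus strand) and Mki67 at -98 (chr7:135716460-135716489, minus strand). Ccnb1 holds TTTAAA at -42 (chr13:100786511-100786540, minus strand) and Plk1 at -29 (chr7:122159394-122159423, plus strand). In Kif2c, TTTGAA lies on the strand opposite to the gene, at -103 (chr4:117178858-117178887, plus strand). Further matches in these promoters are not shown. Plk1 also holds TTTGAA at 30 and TTTAAA at -89. Cdk1 holds another TTTGAA at -71 and Mki67 at -116, and Kif2c holds TTTAAA at -234.
Cdk1: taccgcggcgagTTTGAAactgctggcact
Cdc20: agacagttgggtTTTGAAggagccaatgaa
Ccnb1: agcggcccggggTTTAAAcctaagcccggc
Plk1: gcgggtttgtatTTTAAAtccccgcggcca
Kif2c: gcattactcaggTTTGAAagagcagcctgg
Mki67: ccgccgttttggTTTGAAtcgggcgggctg

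The number of reads behind these genes was moderate. The libraries held between 10824918 and 27890433 reads on genes, of which the mitosis genes took 0.162% to 0.308%. The least covered value was that of Plk1, with 63 reads in 1 library. Levels are CPM scaled with edgeR's TMM factors over the 12 libraries, and are given as mean ± SD with n = 3. Scaled to the length of the principal transcript, Top2a, the topoisomerase that untangles chromosomes, was the highest of the 40 in all 4 groups. It stood at 90.5 ± 3.96 CPM per kilobase in MRC1+, 69.7 ± 11.9 in CD11c+, 82.1 ± 2.55 in miR-511-3p and 73.3 ± 12.4 in mutated TAMs. Mki67, the gene of the Ki-67 antigen that coats mitotic chromosomes, ranked 2 in 3 groups and 3 in CD11c+ TAMs. The lowest were the checkpoint genes Ttk and Mad2l1, at 3.82 ± 0.0989 and 3.57 ± 0.278 CPM per kilobase in MRC1+ TAMs. The annotated principal transcript of Mad2l1 is 7557 bases long, which lowers its value on this scale. Those of Ube2c and Birc5 are 967 and 947 bases long, which can raise theirs. The longest annotated 3′ UTRs of Ube2c and Birc5 alone are longer, at 1598 and 2936 bases.

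**Figure D1:**
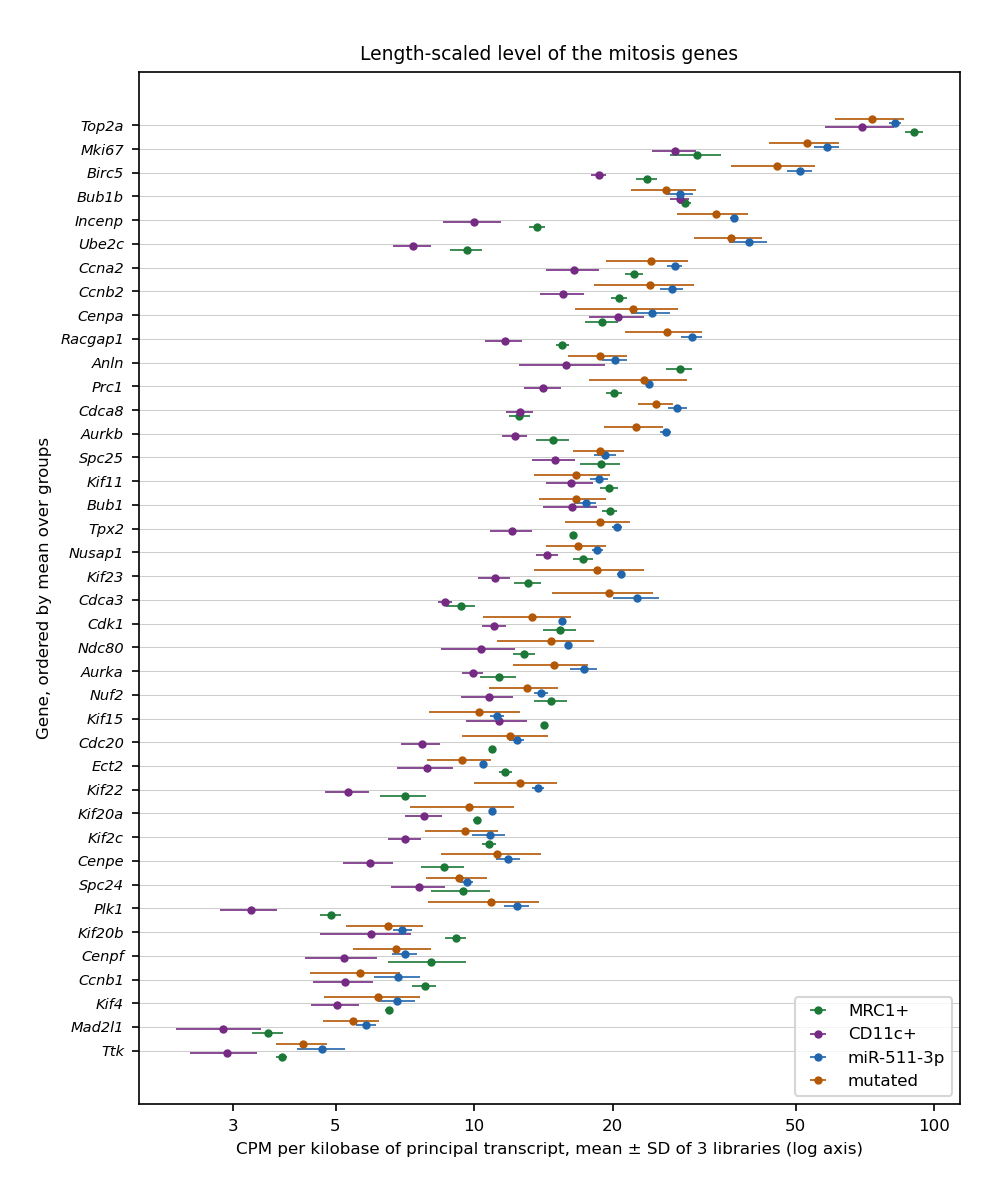
Level of each mitosis gene per kilobase of its principal transcript (log axis), as the mean ± SD of 3 libraries in each of the 4 groups. Top2a lies highest in every group, from 69.7 to 90.5 CPM per kilobase, and Ttk and Mad2l1 lie lowest, under 6 in every group.

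The first comparison asked how MRC1+ TAMs differ from CD11c+ TAMs. Of the 40 mitosis genes, 20 were called higher in MRC1+ TAMs and 0 lower, in the quasi-likelihood test of edgeR, with p-values adjusted by Benjamini-Hochberg over all genes and a threshold of 0.05. Over all 15622 genes tested, 6.91% were called higher and 9.71% lower. The called mitosis genes rose by 0.35 to 0.82 on the log2 scale, with a median of 0.50. Over all 40 genes the median log2 fold change was 0.38, against 0.01 over all genes tested, and 39 of 40 values lay above 0, as did 51.5% of all genes. For 31 genes the 3 MRC1+ libraries all lay above the 3 CD11c+ libraries, which held for 18.5% of all genes, and for 0 genes all below, against 19.9% of all genes. The same number, 31, had an unadjusted p under 0.05, against 33.3% of all genes in either direction.

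The count depended on single libraries. It was 8, 3 and 2 without the first, the second and the third MRC1+ library, and 31, 4 and 9 without the first, the second and the third CD11c+ library. The share of all genes called higher moved from 2.46% to 14.8% over the same fits. Kif2c and Anln were the only mitosis genes called in all 6 of them. The other 18 each lost their call without at least 1 library. Ccnb1, Ccnb2, Ccna2, Birc5, Plk1, Kif20a, Kif4, Nuf2 and Racgap1 kept theirs only without the first CD11c+ library. In that fit 14.8% of all genes were called higher. The first CD11c+ library stood apart from the others of its group on the second principal component, and the mitosis genes were read higher in it: 29 of 40 were at their highest of the 3 CD11c+ libraries there. The third CD11c+ library, the shallowest of the 12, held the lowest value of the 6 libraries for 25 genes. The 20 called genes were all called without the first CD11c+ library too, beside 11 others.

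**Figure D2:**
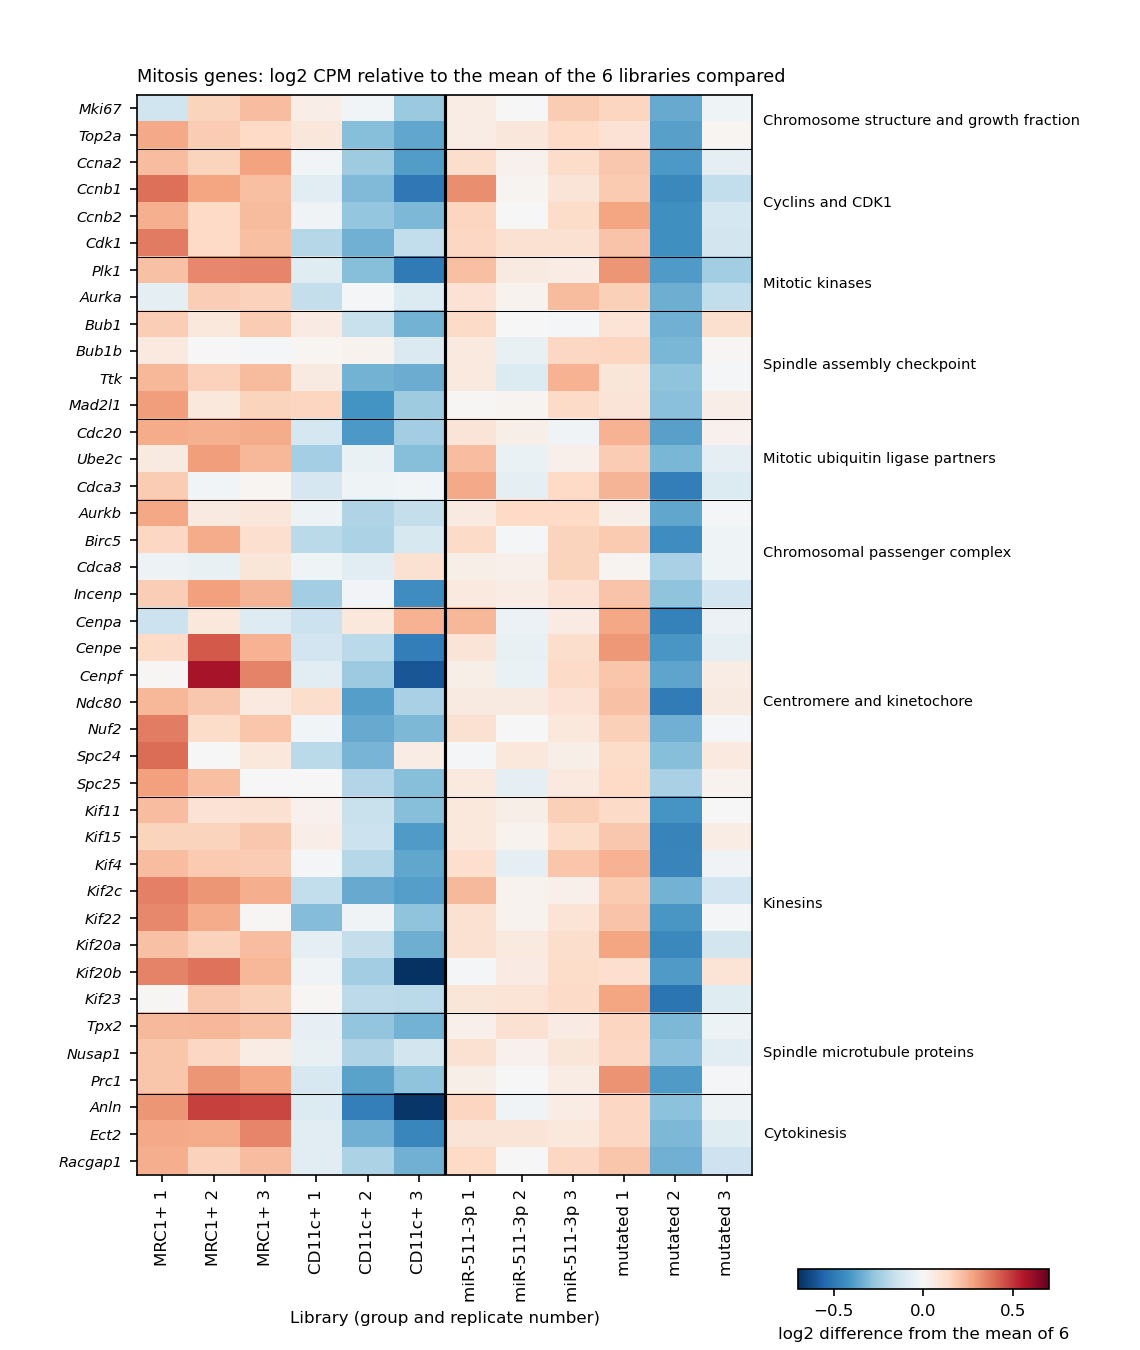
Log2 CPM of the 40 mitosis genes in each library, as the difference from the mean of the 6 libraries of the same comparison, with genes grouped by role. The MRC1+ columns are mostly red and the CD11c+ columns mostly blue, with the first CD11c+ library nearest to 0. In the right block the second mutated library is lowest for all 40 genes.

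All 4 genes of the mitotic entry engine rose in MRC1+ TAMs. The cyclin genes kept their calls in only 1 of the 6 fits that left out a library. CDK1 is the kinase whose activity defines mitosis. Cdk1 was read at 73.2, 62.6 and 65.9 CPM in the MRC1+ libraries and at 49.6, 45.0 and 50.4 CPM in the CD11c+ libraries. The groups did not overlap, and the log2 fold change was 0.48 ± 0.09 (standard error, SE; edgeR adjusted p = 0.0117). Ccnb1 encodes cyclin B1, the partner that activates CDK1 at entry. It was read at 20.7, 19.2 and 18.4 against 15.1, 12.8 and 11.2 CPM, a log2 fold change of 0.57 ± 0.13 (edgeR adjusted p = 0.0222). Ccnb2, which encodes cyclin B2, was read at 31.6 ± 1.29 against 23.9 ± 2.64 CPM and rose by 0.40 ± 0.11 (edgeR adjusted p = 0.0359). Ccna2 encodes cyclin A2, which serves S phase and G2, and was read at 66.1 ± 2.86 against 49.0 ± 6.47 CPM, a rise of 0.43 ± 0.11 (edgeR adjusted p = 0.0305). Pseudogenes are annotated for Ccnb1 and Ccnb2, and reads that fit such a copy equally well would not have been counted.

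Of the kinases that act next, Plk1 rose and Aurka did not pass. PLK1 drives mitotic entry and centrosome maturation. Plk1 was read at 10.1, 11.0 and 11.1 CPM in MRC1+ and at 8.25, 7.12 and 6.20 CPM in CD11c+ TAMs, with no overlap and a log2 fold change of 0.57 ± 0.15 (edgeR adjusted p = 0.0323). Aurka, the kinase of the spindle poles, stood at 21.6 ± 1.92 against 19.0 ± 0.996 CPM, and its libraries overlapped.

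The chromosomal passenger complex corrects faulty attachments and later marks the cleavage site. Of its 4 genes, Incenp, the scaffold, and Birc5, which encodes survivin, rose. Incenp was read at 42.5, 46.0 and 44.4 against 31.9, 37.3 and 27.9 CPM, a log2 fold change of 0.45 ± 0.12 (edgeR adjusted p = 0.0324). Birc5 was read at 22.0, 23.9 and 21.6 against 17.5, 17.1 and 18.4 CPM and rose by 0.35 ± 0.10 (edgeR adjusted p = 0.0404). Blocked on replicate number, Birc5 missed the threshold (edgeR adjusted p = 0.0597, while the alternatives gave 0.0181 to 0.189). Aurkb, the kinase of the complex, stood at 29.0 ± 2.36 against 23.9 ± 1.54 CPM without passing. Cdca8, which encodes borealin, was the same in both groups within its error, at 20.4 ± 1.07 and 20.4 ± 1.36 CPM, with a log2 fold change of 0.00 ± 0.10. Whether the folds of the 4 genes differ from each other was not tested.

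At the centromere and kinetochore 3 of 7 genes rose. Cenpe encodes the kinesin that carries chromosomes to the spindle equator, and was read at 61.5, 75.6 and 66.6 against 51.2, 49.3 and 40.2 CPM, a log2 fold change of 0.53 ± 0.12 (edgeR adjusted p = 0.0204). Cenpf, a large kinetochore protein, was read at 71.8, 106 and 90.6 against 67.5, 59.7 and 47.2 CPM. Its groups were separated by the narrow gap between the first MRC1+ and the first CD11c+ library, and it rose by 0.62 ± 0.17 (edgeR adjusted p = 0.0421). Blocked on replicate number, Cenpf missed the threshold (edgeR adjusted p = 0.0521, while the alternatives gave 0.00565 to 0.164). Nuf2 is 1 of the 4 subunits of the NDC80 complex, which binds microtubules. It rose by 0.45 ± 0.12, from 25.9 ± 3.39 to 35.4 ± 2.94 CPM (edgeR adjusted p = 0.0376), whereas Ndc80, Spc24 and Spc25 lay above 0 without passing. Per kilobase the 4 subunits stood between 9.45 and 18.9 CPM in MRC1+ TAMs. Cenpa, the histone that defines the centromere, was the only mitosis gene below 0, at 27.9 ± 2.29 against 30.2 ± 4.10 CPM with overlapping libraries.

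All 8 kinesin genes lay above 0 and 4 of them rose. Kif2c encodes MCAK, a kinesin that takes microtubule ends apart, and had the lowest p of all mitosis genes. It was read at 31.7, 30.7 and 29.6 CPM in MRC1+ and at 22.0, 19.4 and 19.0 CPM in CD11c+ TAMs. The gap between the groups was wider than the range within either, and the log2 fold change was 0.60 ± 0.10 (edgeR adjusted p = 0.00475). Kif20b, a kinesin of late mitosis, was read at 50.8 ± 2.61 against 33.2 ± 7.46 CPM and rose by 0.61 ± 0.15 (edgeR adjusted p = 0.0317). Kif20a, a kinesin needed for cytokinesis, rose by 0.38 ± 0.10 (edgeR adjusted p = 0.0314), from 28.7 ± 2.67 to 37.3 ± 0.732 CPM. Its exons overlap those of Cdc23 on the opposite strand over 29.3% of their bases, and reads of such partners cannot be told apart where counting ignores strand, which is not known here. Kif4, a chromosome-bound kinesin, rose by 0.37 ± 0.11 (edgeR adjusted p = 0.0470), from 25.1 ± 3.01 to 32.5 ± 0.526 CPM, the weakest of the 20 calls. Pseudogenes are annotated for Kif4 and Kif22 too. The exons of Kif4 overlap those of Pdzd11 on the opposite strand over 15.1% of their bases. Kif11, the motor that separates the spindle poles, stood at 94.5 ± 4.21 against 78.1 ± 9.08 CPM without passing, as did Kif15, Kif22 and Kif23.

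Genes of the spindle and of cleavage (Prc1, Tpx2, Anln and Ect2) held 4 of the 6 lowest p-values. PRC1 bundles the microtubules of the central spindle. Prc1 was read at 58.5, 63.2 and 61.5 against 47.2, 39.3 and 41.9 CPM, a log2 fold change of 0.51 ± 0.09 (edgeR adjusted p = 0.00861). Tpx2, which activates Aurora A on the spindle, was read at 71.9, 72.1 and 70.7 against 59.1, 50.8 and 48.7 CPM and rose by 0.44 ± 0.09 (edgeR adjusted p = 0.0166). Nusap1, a spindle-binding protein, lay just outside the threshold, at 51.0 ± 2.52 against 42.7 ± 2.38 CPM.

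All 3 cytokinesis genes rose, Racgap1 with a call in only 1 of the 6 fits that left out a library. Anln encodes anillin, the scaffold of the contractile ring, and had the largest fold of the 40. It was read at 119, 134 and 133 CPM in MRC1+ and at 90.1, 69.2 and 60.0 CPM in CD11c+ TAMs, a log2 fold change of 0.82 ± 0.15 (edgeR adjusted p = 0.00769). Ect2, the exchange factor that switches on RhoA at the cleavage site, was read at 46.9, 46.8 and 49.5 against 37.2, 31.0 and 28.6 CPM. It rose by 0.57 ± 0.11 (edgeR adjusted p = 0.0117). Racgap1, the centralspindlin subunit that recruits ECT2, rose by 0.42 ± 0.09 (edgeR adjusted p = 0.0201), from 35.5 ± 3.26 to 47.5 ± 1.51 CPM.

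The checkpoint genes and the widely used proliferation markers Mki67 and Top2a were not called. None of the 4 spindle checkpoint genes passed in edgeR, with adjusted p-values from 0.108 to 0.756, while 2 had an unadjusted p under 0.05 and 0 passed in DESeq2. Without the first CD11c+ library 3 of the 4 passed as higher, against 14.8% of all genes called higher in that fit. They were Bub1, Ttk and Mad2l1, with edgeR adjusted p-values of 0.0158, 0.0175 and 0.0110. Bub1b, which encodes the checkpoint kinase BUBR1, differed little, at 106 ± 3.11 against 103 ± 4.86 CPM. Of the partners of mitotic ubiquitin ligases, Cdc20, the mitotic activator of the anaphase-promoting complex, rose by 0.51 ± 0.11 (edgeR adjusted p = 0.0167). Its values were 19.7, 19.5 and 19.6 CPM in MRC1+ and 15.1, 12.4 and 13.9 CPM in CD11c+ TAMs. Ube2c, the ubiquitin-conjugating enzyme of that complex, and Cdca3 did not pass. Mki67 was read at 263, 322 and 337 against 299, 285 and 242 CPM. Its groups overlapped, and the log2 fold change was 0.16 ± 0.13 (edgeR adjusted p = 0.408). Top2a was read at 495, 466 and 455 against 435, 336 and 321 CPM. These groups did not overlap, yet the log2 fold change of 0.38 ± 0.13 missed the threshold (edgeR adjusted p = 0.0790). It passed when blocked on replicate number (edgeR adjusted p = 0.0413, while the alternatives gave 0.00372 to 0.218). Whether Mki67 differs from the called genes in its response was not tested.

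**Figure D3:**
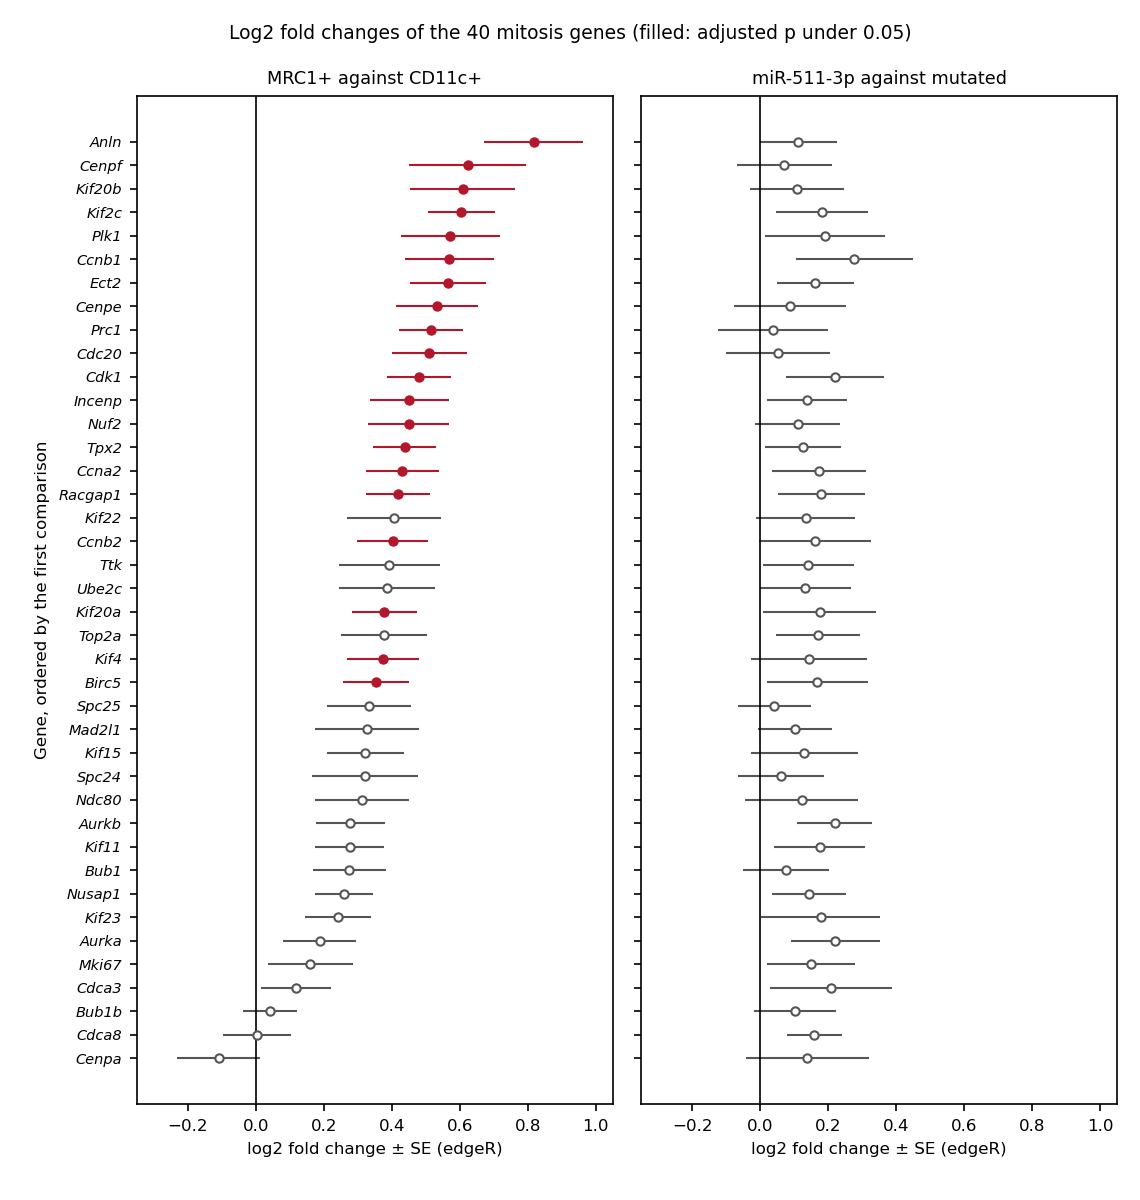
Log2 fold change ± SE of each mitosis gene in both comparisons, in the order of the first, with filled points where the edgeR adjusted p was under 0.05. In MRC1+ against CD11c+ TAMs 20 genes are filled and values run from -0.11 to 0.82, and in miR-511-3p against mutated TAMs none is filled and values run from 0.04 to 0.28.

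Other cell cycle genes were counted in lists set beside the mitosis genes. Of 33 further mitosis genes 10 rose in MRC1+ TAMs and 0 fell, with a median log2 fold change of 0.37. Over all genes tested, 6.91% were called higher and 9.71% lower. Hmmr, a spindle-binding protein, rose by 0.55 ± 0.09 (edgeR adjusted p = 0.00514) and Ckap2, a microtubule-associated protein, by 0.75 ± 0.13 (edgeR adjusted p = 0.00758). The kinesin gene Kif18b and Cdca2, a phosphatase subunit of chromosomes, were called as well. Of 30 DNA replication genes only Chaf1a, which loads histones onto new DNA, rose (0.48 ± 0.13, edgeR adjusted p = 0.0389), 26 of 30 lay above 0, and the median was 0.17. The summed level of the 40 mitosis genes was 1.76 ± 0.166 times that of the replication genes in MRC1+ and 1.56 ± 0.0878 times in CD11c+ TAMs, and the ratios of the libraries overlapped. Without the first CD11c+ library 22 of 33 further mitosis genes rose and 1 fell, and 10 of 30 replication genes rose and 1 fell, while 14.8% of all genes rose and 14.8% fell in that fit.

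The called regulators went in both directions. Of all genes tested, 6.91% were called higher and 9.71% lower. In the list of CDK1 entry control, 4 of 8 genes rose: the CDK1-activating phosphatases Cdc25b (0.81 ± 0.12) and Cdc25c (0.60 ± 0.14), the Greatwall kinase Mastl (0.66 ± 0.16), and Wee1 (0.88 ± 0.22), which inhibits CDK1. Of 17 transcription factors of the cycle 2 were called higher and 2 lower, not far from the shares of all genes. Mybl2, which encodes B-MYB, rose by 0.54 ± 0.12 and Foxm1 by 0.51 ± 0.15. E2f2 and Rb1, the retinoblastoma gene, fell by 1.01 and 0.40 on the log2 scale. Of 8 G1 cyclins and CDKs, Cdk4 rose by 0.34 ± 0.08, while the D-type cyclins Ccnd2 and Ccnd3 fell by 1.61 and 0.65. Of 6 CDK inhibitors tested, Cdkn1b (p27) and Cdkn1a (p21) fell by 0.91 and 0.92, and Cdkn2c (p18) rose by 0.59 ± 0.10. None of 15 genes of the anaphase-promoting complex and its inhibitors passed in edgeR (lowest adjusted p = 0.193) or in DESeq2, and 0 had an unadjusted p under 0.05. Of the 25 genes called in these further lists, 9 were called in all 6 fits that left out 1 library: Hmmr, Ckap2, Kif18b, Cdc25b, E2f2, Ccnd2, Ccnd3, Cdkn1b and Cdkn2c. The named regulators had edgeR adjusted p-values from 0.000149 for Ccnd2 to 0.0477 for Foxm1.

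Markers of some other cells differed between the groups. Among all genes tested, 6.91% were called higher in MRC1+ TAMs and 9.71% lower. Of 6 carcinoma and epithelial markers tested, Krt8, Krt18, Krt19 and Hmga2 were higher in MRC1+ TAMs, and Cdh1 and Epcam lower. Hmga2, a chromatin protein of many tumours, was read at 82.3, 119 and 110 against 71.1, 49.0 and 33.4 CPM. The summed carcinoma list was 144 to 210 CPM in MRC1+ and 118 to 171 CPM in CD11c+ TAMs, and Cldn3 had 0 reads in every library. This sum mixes both directions and so hides differences of single genes. Cdh1 was read at 5.82, 3.53 and 3.60 CPM in MRC1+ against 49.3, 57.2 and 62.7 CPM in CD11c+ TAMs. Fibroblast markers summed to 603 to 839 CPM in MRC1+ TAMs, and to 1151, 264 and 319 CPM in the CD11c+ libraries, with 0 of 10 called in edgeR or in DESeq2 and 1 at an unadjusted p under 0.05. Without the first CD11c+ library 8 of the 10 fibroblast markers were called higher in MRC1+ TAMs, against 14.8% of all genes in that fit. All 7 dendritic cell markers were lower in MRC1+ TAMs, where they summed to 111 to 150 CPM against 1182 to 1455 CPM. Itgax is among them, and its direction follows from sorting on CD11c. It held a mean of 97.2 of 132 CPM in MRC1+ and 946 of 1317 CPM in CD11c+ TAMs, most of each sum. Of 8 macrophage markers Adgre1 and Mertk were higher, and the list summed to 5910 to 6854 against 5174 to 6583 CPM. T and NK cell markers summed to 67.6 to 134 against 32.0 to 115 CPM, with 2 of 9 tested lower. Endothelial markers summed to 29.4 to 38.9 against 78.0 to 119 CPM without overlap, with Pecam1 and Kdr lower and Cdh5 higher in MRC1+ TAMs. Neutrophil markers summed to 54.0 to 71.7 against 49.4 to 110 CPM, with 1 of 4 tested, Csf3r, lower. Of 3 B cell and 4 erythroid markers tested, 0 were called in edgeR or in DESeq2, and 1 and 0 had an unadjusted p under 0.05 in edgeR. The part of these cells in the differences of the mitosis genes was not tested.

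**Figure D4:**
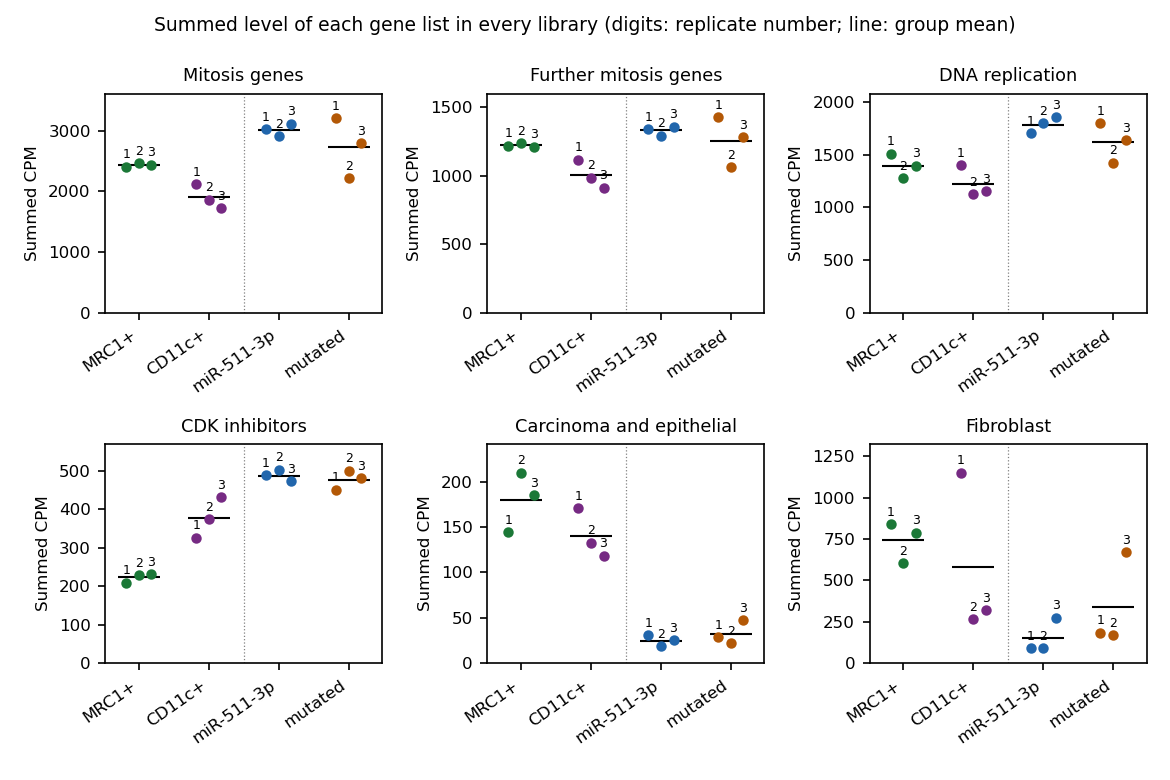
Summed CPM of 6 gene lists in each library, with replicate numbers as digits and the group mean as a line. The mitosis genes sum to 2408 to 2463 CPM in MRC1+ and 1723 to 2120 CPM in CD11c+ TAMs, and the second mutated library stands lowest of the overexpression libraries at 2214 CPM.

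The second comparison asked what miR-511-3p changes relative to its mutated form. A microRNA lowers transcripts that pair with its seed, bases 2 to 8, mostly in the 3′ UTR. The RefSeq mature sequence of miR-511-3p (chr2:14261051-14261072 on GRCm38.p6, plus strand) is shown with its seed in capitals, since the matches counted here derive from it.
mmu-miR-511-3p: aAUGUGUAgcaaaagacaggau
A match of 7 bases (TACACAT or ACACATA) was found in the 3′ UTR of 7 of the 40 mitosis genes (17.5%), against 4228 of 21105 genes, a slightly larger share. The genes were Kif15, Cdca8, Nuf2, Mad2l1, Nusap1, Prc1 and Ect2. The median 3′ UTR was shorter in the mitosis genes, at 837 against 1090 bases.

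No mitosis gene was called in miR-511-3p against mutated TAMs. In edgeR 0 of all 14054 genes tested passed in either direction (0%), while DESeq2, edgeR with the replicate block and edgeR fitted to all 12 libraries each called 1 gene, which was no mitosis gene. At an unadjusted p under 0.05 there were 0 of the 40 mitosis genes, against 2.44% of all genes, and with the replicate block 2 of 40, against 5.77%. All 40 log2 fold changes lay above 0, from 0.04 to 0.28, with a median of 0.14 against 0.00 over all genes tested, of which 51.3% lay above 0. Libraries were separated without overlap for 2 genes, Aurkb and Cdca8, both higher under miR-511-3p, against 2.42% of all genes in that direction and 3.84% in the other.

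The common direction rested on 1 library. The second mutated library held the lowest of the 6 values for 40 of 40 genes, with a mean deviation of -0.37 on the log2 scale, and the first mutated library the highest of its own group for 39. The summed level of the mitosis genes was 3029, 2904 and 3115 CPM in the miR-511-3p and 3207, 2214 and 2791 CPM in the mutated libraries. Without the second mutated library 23 genes lay above and 17 below 0, and the median was 0.01. Without the first mutated library the median was 0.26 and 15 genes had an unadjusted p under 0.05, against 5.18% of all genes in that fit, none passing after adjustment. The DNA replication genes were also lowest in the second mutated library, at 1427 CPM against 1639 to 1856 CPM in the other overexpression libraries. Of the marker lists of other cells, its endothelial list (33.5 CPM) and its neutrophil list (66.2 CPM) were also the lowest of the 6. Its fibroblast list summed to 170 CPM and its carcinoma list to 21.8 CPM, within the ranges of the other overexpression libraries, which ran from 88.5 to 669 and from 18.4 to 47.2 CPM.

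The lowest p-values belonged to 2 genes of the chromosomal passenger complex. Aurkb was read at 49.1, 51.7 and 51.7 CPM under miR-511-3p and at 48.4, 36.5 and 46.5 CPM under the mutated form, a log2 fold change of 0.22 ± 0.11 (edgeR adjusted p = 0.999883). Cdca8 gave 43.9, 43.7 and 47.4 against 43.1, 36.3 and 41.7 CPM, a log2 fold change of 0.16 ± 0.08. In both genes the gap between the groups was smaller than the spread of the mutated libraries. Aurka (0.22 ± 0.13), Ccnb1 (0.28 ± 0.17), Cdk1 (0.22 ± 0.14) and Ect2 (0.16 ± 0.11) followed, each with an edgeR adjusted p = 0.999883 and overlapping libraries. Mki67 gave 0.15 ± 0.13, at 588 ± 37.2 against 532 ± 91.6 CPM, and Top2a 0.17 ± 0.12, at 429 ± 13.3 against 383 ± 64.7 CPM. The 20 genes called in MRC1+ against CD11c+ TAMs ran from 0.04 (Prc1) to 0.28 (Ccnb1) here in log2 fold change, with a median of 0.15, and none passed. Among them Kif2c gave 0.18 ± 0.14, Anln 0.11 ± 0.11, Plk1 0.19 ± 0.18 and Tpx2 0.13 ± 0.11.

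The spread of the mitosis genes within a group differed between the groups. The median coefficient of variation of the 40 genes was 5.28% in MRC1+, 11.3% in CD11c+, 4.82% in miR-511-3p and 18.8% in mutated TAMs. The groups of wide spread are those with the first CD11c+ and the second mutated library.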

How the data were processed

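Libraries were prepared with an Illumina TruSeq kit, per the labels' protocols. The authors deposited raw read counts for each Ensembl gene, 1 table per library. Per the submitters' processing notes, HTSeq, TopHat 1.2.0, Bowtie and SAMtools 0.1.12a were used with mm9 (NCBIM37). The sources used here do not give the counting mode or its use of strand. Summary entries naming no gene were left out, of which reads over no feature took 19.7% to 26.6% in sorted libraries and 7.64% to 10.4% in overexpression libraries. GENCODE M21 (GRCm38) gave symbols for 31819 of 36439 identifiers, transcript lengths and 3′ UTRs of at least 20 bases.

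Each comparison used edgeR 4.0.16 in R 4.3.3 on its 6 libraries (quasi-likelihood test, TMM, filterByExpr, Benjamini-Hochberg adjustment over all genes at 0.05), with SE as the absolute log2 fold change over the square root of F. DESeq2 1.42.0, other scalings and filters, a replicate block, 1 fit of 12 libraries and leaving out each library were alternatives. On simulated counts (15416 genes for the sorted, 13918 for the overexpression comparison) 58.6% and 64.3% of 2-fold and 97.0% and 95.0% of 4-fold changes were recovered, and 9.41% and 11.7% of calls were false. Each simulation changed 200 genes, and both shares of false calls exceeded the threshold of 0.05.

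Libraries of a group differed beyond sampling noise (chi-square per degree of freedom 9.18 to 33.0). Deviations of same-numbered libraries correlated at 0.104, 0.337 and 0.250 (sorted) and 0.147, 0.258 and 0.462 (overexpression), all above 0.1, and those of different-numbered libraries at -0.235 to -0.0270 and -0.385 to 0.166. The labels do not say what a number marks. Values reported are from the fit without the block, with the blocked value beside a result where it changes the call. Fold changes are named for called genes, for the 6 of lowest p in each comparison, and for Mki67, Top2a and Cdk1, and up to 4 called genes per list. The genes and lists were chosen with earlier results of these data known. Promoters of Spc24, Ccna2, Tpx2, Aurkb, Incenp and Kif20a were not used here.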

Additional observations from a re-analysis of the deposited data

How the results depend on the processing

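Of the mitosis genes, 20 were called higher in MRC1+ TAMs, and 16 to 23 were under the other scalings, filters, tools and designs. These counts were 18 with DESeq2, 19 with the replicate block and 16 in the fit of 12 libraries. Of the 20 genes, 15 kept their call in all 8 of these settings. Leaving out 1 library gave 2 to 31 called genes and a median log2 fold change of 0.35 to 0.47. With library totals only, the median was 0.51 while that of all genes was 0.14, a difference of 0.37 as in the fit reported. The replicate block changed 3 calls: Top2a was gained, and Birc5 and Cenpf were lost. Cdca8, at 0.00 in MRC1+ against CD11c+ TAMs, took the opposite sign with RLE size factors (-0.0014), with DESeq2 (-0.0083), and when some single libraries were left out (-0.0521 to 0.0639 over the 6). Without the second mutated library, 7 of the named genes turned below 0 in miR-511-3p against mutated TAMs. Over the 6 fits that left out 1 library, Prc1 ran from -0.126 to 0.216, Cdc20 from -0.101 to 0.192, Cenpf from -0.0761 to 0.182, Cenpe from -0.0727 to 0.276, Kif20b from -0.0421 to 0.191, Kif4 from -0.0256 to 0.308 and Nuf2 from -0.0175 to 0.218. The cause was not tested. None of the 40 genes was called in this comparison under any alternative, or lower in the first. All 20 calls are under 2-fold, and the simulated counts held no change of that size.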

Other observations

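The sorted and the overexpression TAMs were prepared as separate groups and are set side by side without a test. Their libraries also differed in the share of reads over no feature, at 19.7% to 26.6% against 7.64% to 10.4%. All 6 overexpression libraries lay above all 6 sorted libraries for 12 of the 40 mitosis genes (30%), against 27.8% of the 13837 genes with a mean of at least 1 CPM, so the share itself is near that of all genes. The genes did not move by a common factor. Ube2c, the ubiquitin-conjugating enzyme of the anaphase-promoting complex, was read at 9.32 ± 0.748 CPM in MRC1+ TAMs, and at 38.2 ± 3.65 CPM in miR-511-3p and 34.9 ± 5.93 CPM in mutated TAMs, a ratio of means of 4.45 between the experiments. Its exons overlap those of Tnnc2 on the other strand over 22.8% of their bases. Incenp and Plk1 had ratios of 2.96 and 2.85, Cdca3 and Birc5 of 2.35 and 2.28, and Mki67 of 1.92. At the other end Kif15 had a ratio of 0.84 and Anln of 0.89, Top2a of 0.97 and Bub1b of 0.95, all with overlapping libraries. The median ratio was 1.31 over the 40 genes and 1.03 over all genes. As a result the order of genes differed. Per kilobase, Ube2c ranked 4 of the 40 in both overexpression groups, 29 in MRC1+ and 30 in CD11c+ TAMs. Its short principal transcript, 967 bases, can raise its place in every group. Anln ranked 4 in MRC1+ and 17 in miR-511-3p TAMs.

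Among genes with a promoter, TTTGAA or TTTAAA, the CHR cores, was present in 15 of 16 called higher in MRC1+ TAMs. It was present in 15 of 18 of the others. TTTGAA was present in 12 of 16 and 15 of 18. TTTAAA, with or without TTTGAA, was present in 6 of 16 and 3 of 18. These shares were not compared by a test.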
